A study of Mus musculus with 48 samples.

Results

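Fat absorption in the jejunum was described through 40 genes that carry fatty acids, activate them, rebuild triglyceride, package it into chylomicrons and handle cholesterol. The genes were taken by name from the gene table, with Ensembl IDs matched to symbols in a GENCODE annotation of the mouse mm10 assembly. All 40 were matched among 55401 gene IDs. Of these, 39 passed the filter on low counts, among 15646 genes that passed in all, and Apoa5 did not.

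RNA was sequenced from whole jejunum of mice in constant darkness every 4 h from CT1 to CT21, in circadian time (CT), the clock hour of the free-running animal. Control mice carried floxed Bmal1 alleles (bmal1fl/fl), and mice called knockout here carry the label Bmal1iec-/-, from a study of the intestinal clock. The Cre driver, the diet, and the sex and age of the mice are not stated in the labels. Each genotype had 4 libraries per time, except knockout CT9 with 3, which gave 24 control and 23 knockout libraries. Replicate numbers used below were assigned in sample order within each group, since the labels carry none. Nothing in the labels says that each library came from a separate mouse, so the p-values below reflect only how these samples vary, which may be technical.

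Enterocytes take up fatty acids and monoacylglycerol set free in the gut lumen, link the fatty acids to coenzyme A and rebuild triglyceride at the endoplasmic reticulum. Part of the fat waits in cytosolic lipid droplets. The rest is loaded onto apolipoprotein B by the microsomal transfer protein and leaves as chylomicrons, which enter the lymph. BMAL1 works with CLOCK on E-boxes in DNA, and other factors of the clock bind D-boxes and ROR elements.

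Counts over the whole of Arntl, the gene of BMAL1, were read first as a check of the labels. They are given here as CPM, a gene's counts scaled to the total of the genes kept in its library. Arntl means ran from 10.4 CPM at CT9 to 78.4 CPM at CT21 in control and from 27.3 to 31.4 CPM over the 6 knockout groups. The fitted 24-h rhythm had an adjusted p of 9.23e-23 in control and of 0.894 in knockout, while the mean over times did not pass (-0.086, adjusted p = 0.317). Of 3 other clock genes, Nr1d1 and Dbp were lower over all times (-1.94 and -0.81) and Nfil3 was higher (0.79). Nr1d1 and Dbp kept a rhythm in knockout, with amplitudes of 1.91 and 1.65 against 2.98 and 3.11 in control. At CT1 Dbp was higher in knockout (1.2, adjusted p = 0.0133), with means of 2.44 CPM against 1.02 CPM in control. Library totals ranged from 4337218 to 6914138 counts (median 5432426), and the 40 genes took 2.72% to 5.04% of them. Gene levels were spread more widely around their usual level in 5 libraries, namely replicates 1 to 3 of knockout CT1, replicate 4 of knockout CT21 and replicate 1 of control CT21. Their relative log expression had interquartile ranges of 0.618 to 1.16, and the highest among the other 42 was 0.491. In the same 5 libraries the median relative log2 level was 0.26 to 0.57 for the 3284 genes with up to 2 kb of exon and -0.53 to -0.18 for the 4412 genes with 6 kb or more. In the other 42 libraries both medians lay between -0.13 and 0.08. Results that rest on these libraries are given with and without them. Without them the rise of Dbp at CT1 was 0.94, with a single knockout library left at that time.

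Among markers of absorptive enterocytes, all 8 were measured, and their summed level had a median of 22629 CPM in control and 22421 CPM in knockout. These medians pool the 6 times. At CT9 the sums were 28102 to 34301 CPM in control and lower in knockout, at 18485 to 24981 CPM. At CT13 they were 26923 to 28659 CPM and 24069 to 24764 CPM, again without overlap. At CT1 knockout ranged higher, at 18251.5 to 27771.6 CPM against 16742.5 to 18388.2 CPM. There and at CT5, CT17 and CT21 the groups overlapped. Sis, Alpi and Treh rose and Mgam fell in knockout. The 5 T cell markers all fell, with a median sum of 226 CPM in control and 80.0 CPM in knockout. Markers also fell in the lists of macrophages (1 of 6), blood endothelium (2 of 5), adipocytes (1 of 10, with 9 tested) and duodenum (1 of 3, Cybrd1). Single markers rose in the lists of villus tip (Egfr, 1 of 5), villus base and crypt (Pcna, 1 of 6) and liver (Ttr, 1 of 3, with 1 tested). No marker was at 0 in every library. With the summed enterocyte markers as a covariate, 11 of the 39 genes were higher and 9 lower over all times, against 10 and 9 without it, and the added gene was Mttp (0.17, adjusted p = 0.00925). The share of all genes called with the covariate is not given here. Differences at single times and rhythms were not fitted with it. The part of the other cell types in the results below was not tested. In bulk tissue, fewer cells of a type and less RNA per cell cannot be told apart.

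**Figure D1:**
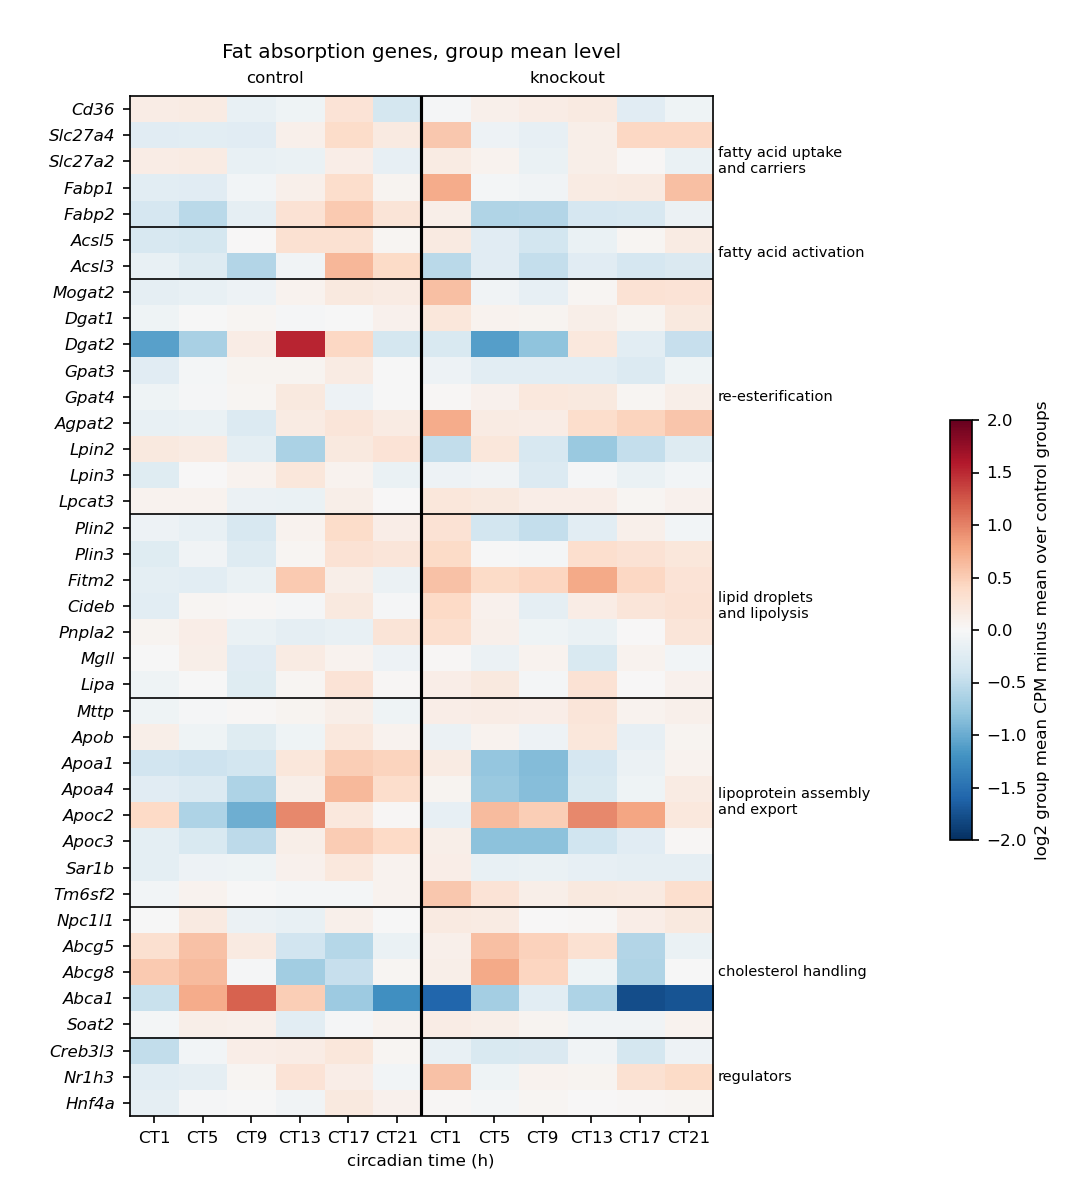
Group mean level of the 39 genes on the log2 scale minus each gene's mean over the 6 control groups, by role (rows) and by genotype and circadian time (columns). Red is above and blue below the control mean. Dgat2 at control CT13 and Abca1 at control CT9 are the deepest red cells of control, and the knockout Abca1 row is blue at all 6 times.

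Proximal promoter sequence was examined for the genes on which the results turn. RefSeq (GRCm38.p6) windows were matched for 33 of the 40 genes, and not for Dgat1, Dgat2, Mogat2, Gpat4, Tm6sf2, Apoc3 and Soat2. The E-box CACGTG lay in the window of 4 of 33 genes (Abca1, Lpin2, Mgll and Apoa5), against 6.86% of the 27025 genes with a window. The ROR element TAGGTCA, searched on both strands, lay in 2 of 33 (Fabp1 and Plin2), against 2.55% of genes. The D-box TTATGTAA lay in none of the 33, against 0.977% of genes. These are letter matches only. The 4 sequences below are the bases just upstream of the start of the called genes with the largest fall and the largest rise (Abca1 and Fitm2) and of both fatty acid carriers, written 5′ to 3′ on the strand of the gene. Capitals mark the E-box of Abca1, 147 bases before the start, and the reverse-strand ROR element of Fabp1, 67 bases before the RefSeq start. None of the 3 motifs is in the Fitm2 and Fabp2 windows. For Fabp1 only the 198 of 250 window bases before the GENCODE gene start are printed. The bases from there to the RefSeq start are not shown. The regions are chr4:53159896-53160145 (Abca1, minus strand), chr2:163472630-163472879 (Fitm2, minus strand), chr6:71199629-71199826 (Fabp1, plus strand) and chr3:122894822-122895071 (Fabp2, plus strand).
Abca1: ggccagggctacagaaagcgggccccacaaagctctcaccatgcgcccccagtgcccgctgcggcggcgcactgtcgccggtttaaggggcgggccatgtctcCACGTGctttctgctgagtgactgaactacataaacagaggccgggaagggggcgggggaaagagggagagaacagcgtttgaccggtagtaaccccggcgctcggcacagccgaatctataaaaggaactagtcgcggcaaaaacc
Fitm2: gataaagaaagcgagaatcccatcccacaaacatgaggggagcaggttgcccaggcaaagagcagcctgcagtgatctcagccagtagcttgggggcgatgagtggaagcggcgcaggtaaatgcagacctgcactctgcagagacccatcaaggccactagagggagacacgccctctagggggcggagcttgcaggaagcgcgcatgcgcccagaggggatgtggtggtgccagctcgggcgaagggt
Fabp1: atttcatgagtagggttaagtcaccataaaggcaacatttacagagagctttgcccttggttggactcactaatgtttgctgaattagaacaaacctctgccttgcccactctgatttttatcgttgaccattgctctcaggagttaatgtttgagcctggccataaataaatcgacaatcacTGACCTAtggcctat
Fabp2: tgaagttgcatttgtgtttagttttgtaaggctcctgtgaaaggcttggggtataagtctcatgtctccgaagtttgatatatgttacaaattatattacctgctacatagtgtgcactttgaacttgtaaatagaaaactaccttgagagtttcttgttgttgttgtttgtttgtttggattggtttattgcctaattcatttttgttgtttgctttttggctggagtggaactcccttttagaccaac

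Averaged over the 6 times, 10 of 39 genes were higher and 9 lower in knockout (edgeR quasi-likelihood test, Benjamini-Hochberg adjusted p under 0.05 over 15646 genes). Over all genes tested, 12.2% were called higher and 11% lower. The median log2 difference of the 39 genes was 0.038, against -0.0058 over all genes, and 23 of the 39 lay above 0. Without the 5 libraries that stand apart, 7 genes were higher and 14 lower (10.3% and 11.1% of all genes), with the median at 0.039. Among genes that passed, the largest differences were a fall of Abca1 by 1.10 and a rise of Fitm2 by 0.47 on the log2 scale.

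**Figure D2:**
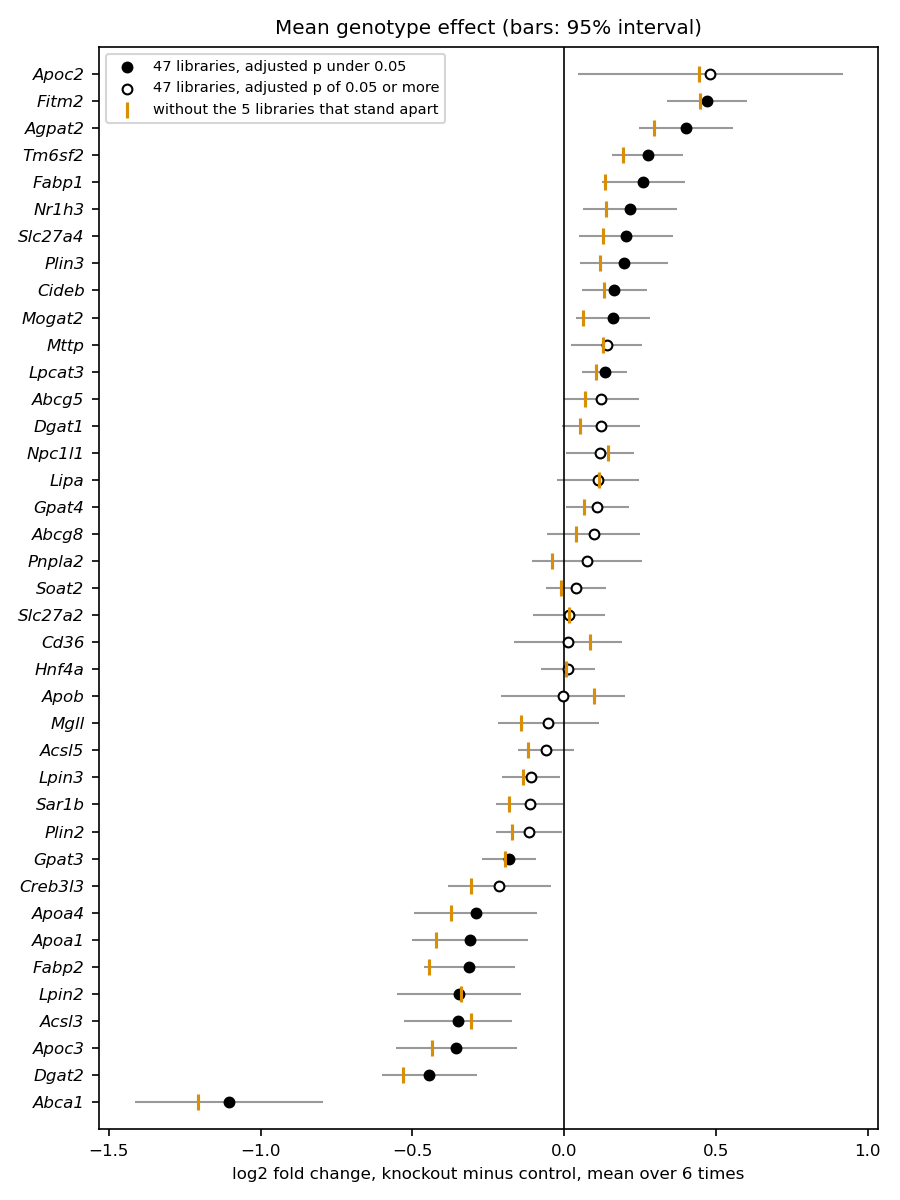
Log2 fold change of the 39 genes, knockout minus control, as a mean over 6 times (points) with its 95% interval (bars). Filled points passed an adjusted p of 0.05, and the orange marks give the value without the 5 libraries that stand apart. Abca1 lies farthest to the left at -1.10, and Fitm2 is the called gene farthest to the right at 0.47.

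Among the 5 genes of fatty acid uptake and transport, the 2 cytosolic carriers moved in opposite directions: Fabp2 was lower and Fabp1 higher in knockout. Fabp2, the intestinal type, was the most abundant of the 40 genes per length in control, at 6678 CPM per kb, and Fabp1, the liver type, came after Apoa1 at 4089 CPM per kb. Fabp2 (chromosome 3, 122895072 to 122899506, plus strand) had its highest control group mean at CT17, with libraries at 6989.7, 8019, 9822 and 10968 CPM, and its lowest at CT5, with 3820.2, 3874, 4393 and 5078 CPM. At CT17 the 4 knockout libraries stood at 4779, 4942, 5067 and 5085 CPM, all below the lowest control library. At CT13 the groups were also apart, with 7119 to 8383 CPM in control against 4289 to 5789 CPM in the knockout. The fall of Fabp2 was 0.85 at CT17 (SE 0.18, adjusted p = 0.00373), 0.63 at CT13 (SE 0.18, adjusted p = 0.0389) and 0.31 over all times (SE 0.074, adjusted p = 0.00141) on the log2 scale. With those 5 libraries removed, the fall over all times was 0.44 (adjusted p = 4.64e-07). Leaving out any 1 of 7 of the 8 CT13 libraries moved the adjusted p at CT13 above 0.05, up to 0.13.

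Rhythms were fitted as a cosine of 24 h in each genotype, and the difference of the 2 curves apart from their mean level was tested. That test takes amplitude and peak time together, and amplitude alone was not tested. The rhythm of Fabp2 differed between genotypes (adjusted p = 0.00436). Its amplitude, measured on the log2 scale from mid-level to peak, was 0.53 ± 0.076 (SE) in control with a peak at CT16.6, and 0.29 ± 0.079 in knockout with a peak at CT21.8. In the other 42 libraries the peaks lay closer, at CT16.3 in control and CT17.2 in knockout, with amplitudes of 0.51 and 0.17. The difference still passed there (adjusted p = 0.0132), while the knockout rhythm itself no longer did (adjusted p = 0.0832).

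Fabp1 (chromosome 6, 71199827 to 71205023, plus strand) was higher in knockout at CT1, the 1 time at which it passed. There the 4 knockout libraries read 2415, 3736, 4169.9 and 4699 CPM, and the control libraries 1797, 1825, 1989 and 2112 CPM. The 3 upper knockout values are those of the libraries that stand apart, and the remaining one is closest to control. The difference at CT1 was 0.96 with all libraries (adjusted p = 0.000279) and 0.28 without the 5 (adjusted p = 0.546). At CT21 it was 0.55 (adjusted p = 0.0879), and 0.47 without the 5 (adjusted p = 0.0538). Over all times Fabp1 rose by 0.26 on the log2 scale (SE 0.067, adjusted p = 0.00323), and its rhythm differed (adjusted p = 0.0166). Both calls ended without the 5 libraries, at 0.13 (adjusted p = 0.0698) for the mean and an adjusted p of 0.379 for the rhythm. Leaving out knockout CT1 replicate 1 was enough to end the rhythm call (adjusted p = 0.0567).

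Slc27a4, a fatty acid transport protein of the enterocyte, averaged 976 CPM in control and 1128 CPM in knockout, a rise of 0.20 with an adjusted p of 0.0499 that ended without the 5 libraries (0.13, adjusted p = 0.116) and in 33 of the 47 fits that left out 1 library. Cd36, the fatty acid translocase, stood at 165 CPM in both genotypes (log2 difference 0.013, 95% interval -0.16 to 0.19). Slc27a2, which activates very long-chain fatty acids, stood at 129 and 130.4 CPM (0.017, interval -0.10 to 0.14). For these 2 genes the intervals leave out a change of 0.20 or more on the log2 scale.

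Of the 2 acyl-CoA synthetases, which trap fatty acids by linking them to coenzyme A, Acsl3 fell and both had a rhythm that differed between genotypes. Acsl5 (chromosome 19, 55251938 to 55297720, plus strand) is the more abundant by far, at 401 CPM per kb in control against 9.80 CPM per kb for Acsl3. In control, Acsl5 rose from 1378 to 1644 CPM at CT5 to 2277, 2329, 2385 and 2520.2 CPM at CT13. The knockout libraries at CT13 read 1625, 1689, 1821 and 1841 CPM and did not overlap with control. At CT1 the order was turned, with 1815 to 2559 CPM in knockout and 1446 to 1649 CPM in control. The difference was -0.45 at CT13 (SE 0.11, adjusted p = 0.0112) and 0.50 at CT1 (SE 0.11, adjusted p = 0.00225), the latter 0.20 (adjusted p = 0.624) without the 5 libraries, which leaves a single knockout library at CT1.

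The rhythm difference of Acsl5 had the smallest adjusted p of the 39 genes (9.43e-06). It had an amplitude of 0.37 ± 0.045 in control with a peak at CT15.1 and 0.27 ± 0.047 in knockout with a peak at CT21.2. Without the 5 libraries the peaks were CT15.0 and CT19.9 and the difference held (adjusted p = 0.000169). Over all times the level of Acsl5 moved little (-0.059, adjusted p = 0.382), and without the 5 libraries it was lower in knockout by 0.12 (adjusted p = 0.0436).

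Acsl3 (chromosome 1, 78657825 to 78707743, plus strand) was high in control at CT17, at 52.5, 56.7, 68.9 and 81.5 CPM. The knockout libraries at CT17 stood at 28.9, 31.9, 32.5 and 35.8 CPM, below every control library of that time. At CT5, CT9 and CT13 the groups overlapped, with means of 27.3 to 39.1 CPM in control against 29.5 to 35.1 CPM in the knockout. The fall of Acsl3 was 1.01 at CT17 (SE 0.21, adjusted p = 0.00324) and 0.35 over all times (SE 0.088, adjusted p = 0.0026) on the log2 scale. Amplitudes of Acsl3 were 0.54 ± 0.088 (control) and 0.060 ± 0.091 (knockout). The test of the rhythm difference gave an adjusted p of 0.0371, and of 0.0175 without the 5 libraries. The adjusted p was above 0.05 in 33 of the 47 fits that left out 1 library.

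Among the 9 genes of re-esterification, which rebuild triglyceride and phospholipid, 3 were higher (Agpat2, Lpcat3 and Mogat2) and 3 lower (Dgat2, Gpat3 and Lpin2) in knockout. The widest daily swing was that of Dgat2, one of the 2 acyltransferases that complete triglyceride. Dgat2 (chromosome 7, 99153658 to 99182719, minus strand) rose in control from 149 to 229 CPM at CT1 to 935, 966, 1175 and 1304 CPM at CT13, and group means differed 6.10-fold over the day. In knockout its highest group mean was also at CT13, with libraries at 364, 382, 503 and 505 CPM, and the group means differed 2.47-fold. The groups did not overlap at CT9 (315 to 516 CPM in control, 196 to 249 CPM in knockout), CT13 and CT17 (431 to 599 CPM against 269 to 365 CPM).

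The fall of Dgat2 was 1.32 at CT13 (SE 0.19, adjusted p = 3.56e-06), 0.96 at CT9 (SE 0.21, adjusted p = 0.00307) and 0.44 over all times (SE 0.078, adjusted p = 2.28e-05) on the log2 scale. At CT1 it was higher in knockout (0.77, adjusted p = 0.0044), which did not pass with the 5 libraries removed (0.42, adjusted p = 0.529) or without knockout CT1 replicate 1 alone (adjusted p = 0.0533). The amplitude was 1.17 ± 0.10 in control with a fitted peak at CT13.5, and 0.43 ± 0.11 in knockout with a fitted peak at CT16.4. The rhythm difference had an adjusted p of 0.000196. Without the 5 libraries the amplitudes were 1.17 and 0.61 and the fitted peaks CT13.5 and CT14.9 (rhythm difference, adjusted p = 0.0241). Control CT13 replicate 2, the library with the highest Dgat2 level, also had the highest summed level of adipocyte markers, at 1231 CPM. Without it Dgat2 fell by 1.2 at CT13 (adjusted p = 5.18e-05), and the rhythm difference had an adjusted p of 0.000764. That library also had the highest Mgll of control (53.0 CPM). Among control libraries that do not stand apart it was highest for Pnpla2 (130 CPM) and Agpat2 (231 CPM), but not for Cd36 or Plin2. The next highest adipocyte sum was 389 CPM, in knockout CT1 replicate 1, with Dgat2 at 422 CPM and Agpat2 at 386 CPM. Dgat1, the other acyltransferase that completes triglyceride, had no swing like that of Dgat2: its amplitude was 0.019 ± 0.061 in control. Its levels of 811 and 884 CPM did not differ beyond their spread (0.12, interval -0.0057 to 0.25).

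Mogat2, which makes diacylglycerol from absorbed monoacylglycerol and lies 36364 bases from Dgat2, averaged 364 CPM in control and 411 CPM in knockout. Its rise of 0.16 (adjusted p = 0.0496) ended without the 5 libraries (0.063, adjusted p = 0.277) and in 34 of the 47 fits that left out 1 library. At CT13 the ratio of group means, knockout over control, was 0.401 for Dgat2 and 0.977 for its neighbour Mogat2.

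Agpat2, which adds the second fatty acid in the glycerol phosphate route, was higher in knockout. Agpat2 (chromosome 2, 26593057 to 26604417, minus strand) read 120.1, 142, 145 and 157 CPM in control and 185, 189.6 and 193 CPM in knockout at CT9, without overlap. At CT13, CT17 and CT21 the groups overlapped, with means of 191, 202 and 192 CPM in control and 218, 233 and 252 CPM in knockout. The rise over all times was 0.40 (SE 0.077, adjusted p = 9.8e-05) on the log2 scale and 0.30 (adjusted p = 4.92e-05) without the 5 libraries. At single times Agpat2 passed at CT1 with all libraries (0.90, adjusted p = 0.00144). Without the 5 libraries it passed at CT9 instead (0.43, adjusted p = 0.0265) and not at CT1 (0.45, adjusted p = 0.286). Its upstream neighbour in the route, Gpat3, went the other way. Gpat3 (chromosome 5, 100845713 to 100899102, plus strand) stood at 139, 142, 162 and 172 CPM in control and 104, 109, 119.7 and 119.8 CPM in knockout at CT17, and fell there by 0.44 (SE 0.11, adjusted p = 0.014). Over all times the fall was 0.18 (SE 0.044, adjusted p = 0.00157). An antisense gene covers 30.0% of the Gpat3 exon bases, and the strand setting of the counting is not stated in the labels.

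Gpat4, the other glycerol phosphate acyltransferase of the endoplasmic reticulum, was lower in abundance (41.8 and 45.1 CPM) and did not pass (0.11, adjusted p = 0.119). Lpin2, a phosphatidate phosphatase, averaged 168 CPM in control and 132 CPM in knockout and fell by 0.35 (adjusted p = 0.00956), and by 0.34 without the 5 libraries (adjusted p = 0.0266). Its relative Lpin3 stood at 99.8 and 92.1 CPM and did not pass (-0.11, adjusted p = 0.0911), but was called lower without the 5 libraries (-0.13, adjusted p = 0.0204). Lpcat3, which places polyunsaturated fatty acids in phospholipids, rose from 278 to 305 CPM (0.13, SE 0.037, adjusted p = 0.00605), and by 0.11 without the 5 libraries (adjusted p = 0.0267). The Lpcat3 call ended when no filter on low counts was used (adjusted p = 0.0543).

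**Figure D3:**
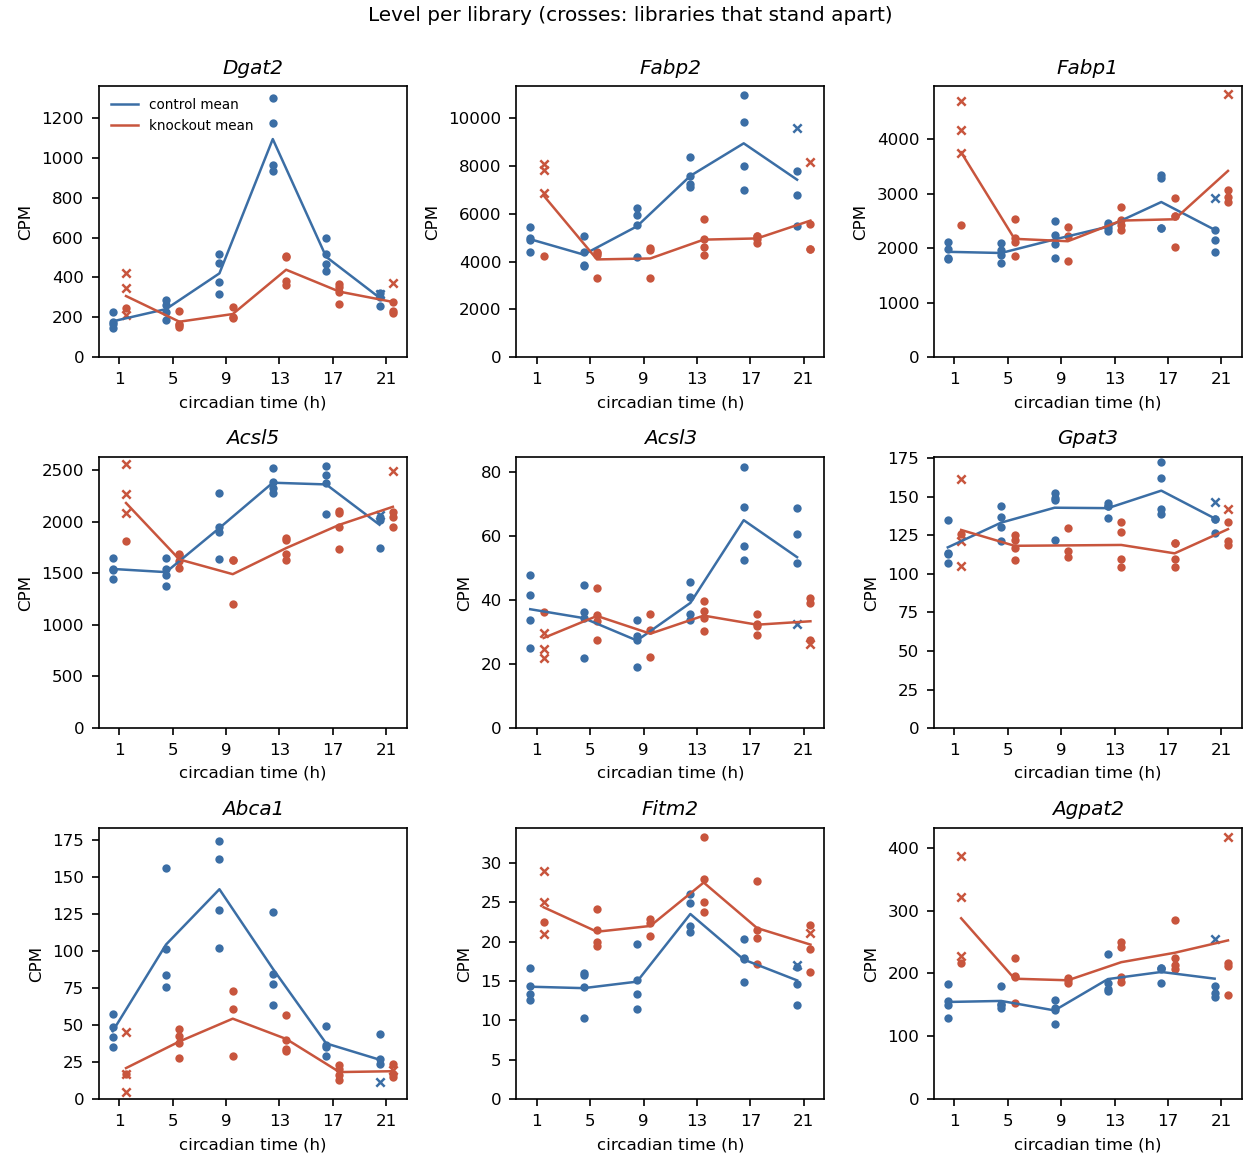
CPM of 9 genes in each of the 47 libraries against circadian time, control in blue and knockout in red, with lines through the group means. Crosses are the 5 libraries that stand apart. The 4 control libraries of Dgat2 at CT13 (935 to 1304 CPM) lie above all knockout libraries, and the knockout Fitm2 libraries at CT5 and CT9 lie above control.

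Among the 7 genes of lipid droplets and lipolysis, 3 were higher in knockout (Fitm2, Plin3 and Cideb), and none was lower with all libraries. Fitm2, a protein of the endoplasmic reticulum that droplet formation depends on, had the smallest adjusted p of the 39 genes for the mean over times. Fitm2 (chromosome 2, 163466379 to 163472629, minus strand) is rare, at 4.19 CPM per kb in control. At CT5 it averaged 14.1 ± 2.63 CPM in control and 21.3 ± 2.11 CPM in knockout (SD, n = 4). At CT9 the libraries read 11.5, 13.4, 15.1 and 19.7 CPM in control and 20.8, 22.4 and 22.9 CPM in knockout. At both times, and at CT1, every knockout library was above every control library, while at CT13, CT17 and CT21 the groups overlapped. The rise was 0.47 over all times (SE 0.065, adjusted p = 3.24e-07), or 1.39-fold, and 0.45 without the 5 libraries (adjusted p = 4.43e-06). At CT9 alone its adjusted p was 0.0501.

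Plin3, a droplet coat protein, averaged 298 CPM in control and 340.4 CPM in knockout, and its rise of 0.20 (adjusted p = 0.0408) ended without the 5 libraries (0.12, adjusted p = 0.148). Plin2, the other coat protein listed, stood at 98.3 and 91.2 CPM and went the other way (-0.12, adjusted p = 0.12), with a call as lower without the 5 libraries (-0.17, adjusted p = 0.0106). Cideb, which helps lipidate lipoproteins, rose from 45.0 to 50.6 CPM (0.17, adjusted p = 0.0188, and 0.13 without the 5 libraries, adjusted p = 0.0257). Its value is uncertain, since Nop9 on the opposite strand covers 76.3% of its exon bases. The lipases did not pass: Pnpla2, which opens the breakdown of stored triglyceride, stood at 98.1 and 103 CPM (0.075), Mgll, the monoacylglycerol lipase, at 32.8 and 31.7 CPM (-0.052), and Lipa, the lysosomal acid lipase, at 107 and 115 CPM (0.11).

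Lipoprotein assembly showed 2 patterns. The small apolipoproteins Apoa1, Apoa4 and Apoc3 were lower in knockout, while Mttp and Apob, which build the particle, did not pass. The 3 lower genes are neighbours on chromosome 9, with gaps of 2466 and 5059 bases between them (Apoa1 46228580 to 46230466, Apoc3 46232933 to 46235636 on the opposite strand, and Apoa4 46240696 to 46243459). Apoa1 was second in abundance per length in control, at 6056 CPM per kb. At CT13 the libraries of Apoa1 read 7957, 8084, 8118 and 9424 CPM in control and 5081, 5820.0, 5891 and 6039 CPM in knockout. At CT17 they read 8574 to 11605 CPM in control against 5607 to 8634 CPM in the knockout, with an overlap of 1 knockout library. Knockout CT21 replicate 4, at 13796 CPM, and control CT21 replicate 1, at 14724 CPM, were the highest of their genotypes and are both among the 5 libraries.

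Over all times the falls on the log2 scale were 0.31 for Apoa1 (SE 0.094, adjusted p = 0.0132), 0.36 for Apoc3 (SE 0.099, adjusted p = 0.00632) and 0.29 for Apoa4 (SE 0.10, adjusted p = 0.0299). With those 5 libraries removed, they were 0.42, 0.44 and 0.37, with adjusted p values of 4.26e-07, 4.15e-06 and 0.00263. At single times none of the 3 passed with all libraries. In the other 42 libraries, Apoa1 was called lower at CT9, CT13, CT17 and CT21, Apoc3 at CT5, CT13 and CT17, and Apoa4 at CT17. Leaving out knockout CT9 replicate 2 moved Apoa4 over all times to an adjusted p of 0.0512, and using no filter on low counts moved it to 0.0988. For Apoa4, genes on the opposite strand cover 34.9% of the exon bases.

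All 3 genes were rhythmic in both genotypes. In control the fitted peaks were CT17.4 (Apoa1), CT18.4 (Apoc3) and CT18.2 (Apoa4), with amplitudes of 0.54, 0.50 and 0.55. In knockout the peaks were CT20.7, CT20.9 and CT20.4, with amplitudes of 0.50, 0.47 and 0.51. The tests of the difference did not pass (adjusted p of 0.235, 0.616 and 0.693). Without the 5 libraries the knockout peaks were CT18.1, CT18.4 and CT18.9, and the control peaks CT16.9, CT17.8 and CT18.1. Knockout amplitudes were then 0.34, 0.32 and 0.41, against 0.49, 0.43 and 0.52 in control, and again no difference passed. Apoa5, the fourth gene of this stretch and mainly a liver gene, was at the edge of detection: it had 0 counts in 19 of 47 libraries and at most 5 counts in 1. Its 52 counts in all were split into 13 in control and 39 in knockout, at or near the floor of 3 counts, which is 0.439 to 0.703 CPM depending on the library.

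**Figure D4:**
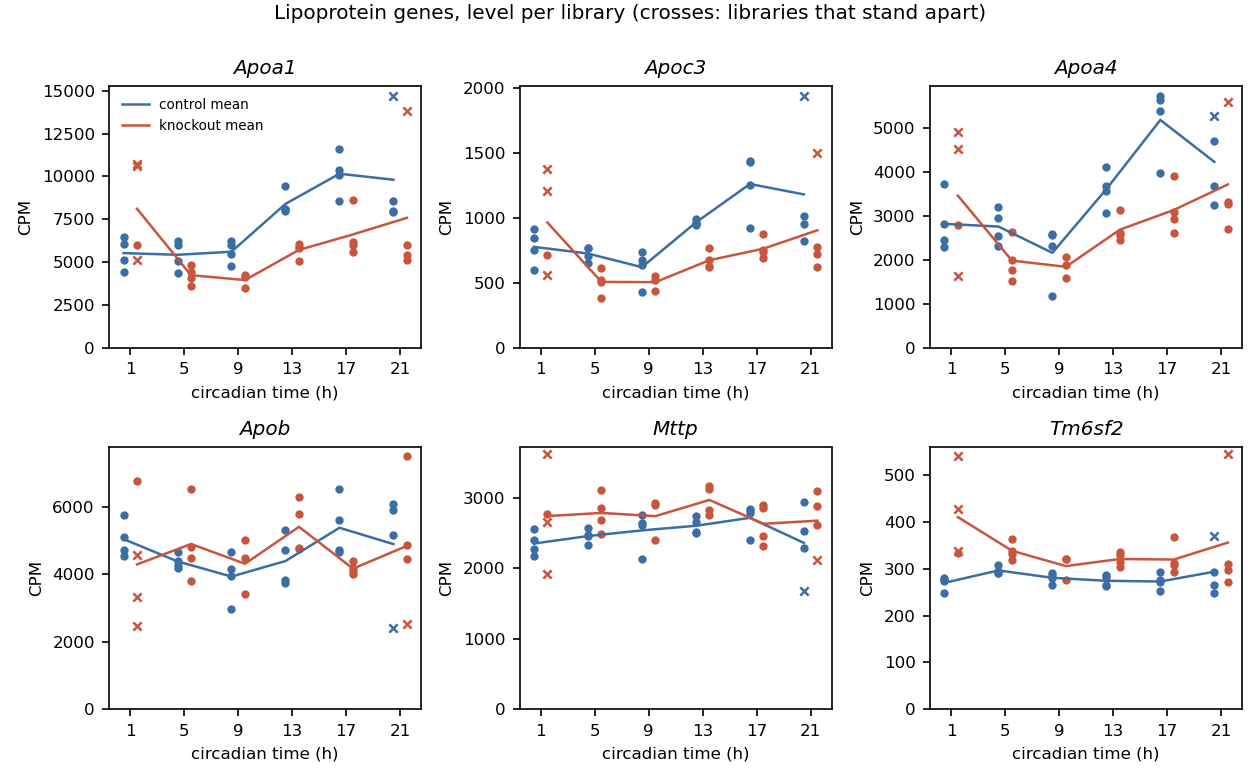
CPM of 6 lipoprotein genes in each of the 47 libraries against circadian time, control in blue and knockout in red, with lines through the group means and crosses for the 5 libraries that stand apart. Apoa1, Apoc3 and Apoa4 are lower in knockout from CT5 to CT21 by their means, whereas the points of Apob overlap at most times.

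Apob, the protein on which a chylomicron is built, averaged 4664 CPM in control and 4646 CPM in knockout, with an interval of the log2 difference of -0.21 to 0.20. Mttp, which loads lipid onto it, averaged 2506 and 2759 CPM (0.14, interval 0.023 to 0.26, adjusted p = 0.0768), and was called higher without the 5 libraries (0.13, adjusted p = 0.0258). Tm6sf2, a membrane protein needed for full lipidation of these particles, was higher in knockout. Tm6sf2 (chromosome 8, 70072924 to 70080066, plus strand) read 291, 291, 296 and 308 CPM in control and 319.9, 332, 339 and 365 CPM in knockout at CT5. At CT13 it read 264, 266, 282 and 286 CPM in control and 304, 314, 330.2 and 336 CPM in knockout, again without overlap. The rise of Tm6sf2 was 0.28 over all times (SE 0.058, adjusted p = 0.00038) and 0.19 without the 5 libraries (adjusted p = 1.71e-05). Sar1b, the small GTPase of the carriers that take chylomicrons out of the endoplasmic reticulum, stood at 209 and 193 CPM (-0.11, adjusted p = 0.13), and was called lower without the 5 libraries (-0.18, adjusted p = 0.00187). Apoc2, the activator of lipoprotein lipase, was rare at 1.09 and 1.43 CPM and did not pass (0.48, interval 0.047 to 0.92, adjusted p = 0.103). A gene on the same strand covers 79.5% of its exon bases, so its value is uncertain.

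Among the 5 genes of cholesterol handling, Abca1 fell. Abca1 moves cholesterol out of the cell onto apolipoprotein A-I. Abca1 (chromosome 4, 53030787 to 53159895, minus strand) rose in control to 102, 128, 162 and 175 CPM at CT9, and was lowest at CT21, at 11.7, 24.0, 26.8 and 44.0 CPM, where the lowest value is that of the library that stands apart. In knockout it also was highest at CT9, at 28.9, 61.0 and 73.2 CPM, below every control library of that time. The groups did not overlap at CT5, CT9, CT13 and CT17, and overlapped at CT1 and CT21.

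The fall of Abca1 was 1.42 at CT5 (SE 0.36, adjusted p = 0.0428), 1.39 at CT9 (SE 0.39, adjusted p = 0.0327) and 1.10 over all times (SE 0.15, adjusted p = 6.85e-07) on the log2 scale. Without the 5 libraries the fall over all times was 1.21 (adjusted p = 2.09e-07), and CT13 and CT17 passed too. The call at CT5 ended in 14 of the 47 fits that left out 1 library, and that at CT9 in 4, and both ended with no filter on low counts. The rhythm of Abca1 was present in both genotypes, with peaks at CT8.5 and CT8.9, amplitudes of 1.21 ± 0.14 in control and 0.85 ± 0.15 in knockout, and no difference that passed (adjusted p = 0.768). With all libraries, the tests of both level and rhythm difference passed for Dgat2, Fabp1, Fabp2 and Acsl3, which were not compared with Abca1.

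The sterol half-transporters Abcg5 and Abcg8, which pump cholesterol back into the lumen and overlap head to head on chromosome 17, did not pass for the mean over times. Abcg5 averaged 306 and 333 CPM (0.12, adjusted p = 0.15) and Abcg8 averaged 276 and 291 CPM (0.097, adjusted p = 0.389). Both were rhythmic in both genotypes, Abcg5 with peaks at CT4.2 in control and CT6.8 in knockout and Abcg8 at CT2.8 and CT5.4. At CT13 Abcg5 read 178, 212, 225 and 284 CPM in control and 342, 343, 383 and 383 CPM in knockout, a rise of 0.69 (SE 0.15, adjusted p = 0.00279). The rhythm difference of Abcg5 had an adjusted p of 0.0656, and of 0.00928 without the 5 libraries. For Abcg8 the values were 0.0947 and 0.123.

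Npc1l1, the sterol importer of the brush border, averaged 1175 and 1273 CPM and did not pass (0.12, adjusted p = 0.126), but was called higher without the 5 libraries (0.15, adjusted p = 0.0357). Soat2, which makes cholesterol esters, stood at 271 and 278 CPM (0.038, interval -0.060 to 0.14). Of the 3 regulators, Nr1h3, the oxysterol receptor that drives Abca1, Abcg5 and Abcg8, averaged 55.5 and 64.9 CPM. Its rise of 0.22 (adjusted p = 0.0336) ended without the 5 libraries (0.14, adjusted p = 0.0774). Creb3l3, a membrane-bound transcription factor of lipid genes, averaged 432 and 369 CPM (-0.21, adjusted p = 0.0605) and was called lower without the 5 libraries (-0.31, adjusted p = 0.000267). Hnf4a, a general factor of enterocyte genes, stood at 829.7 and 834 CPM (0.012, interval -0.077 to 0.10).

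At CT1, 12 genes were higher and 2 lower in knockout, against 12.6% and 8.07% of all genes tested. The 12 higher genes had 0.553 to 4.86 kb of exon, and the 2 lower ones, Lpin2 and Abca1, had 12.2 and 10.4 kb. Of the 4 knockout libraries at CT1, 3 stand apart, and without the 5 libraries none of the 39 genes was called at CT1. In that fit the lone knockout library is assumed to vary like the other groups, and 0.146% of all genes were called higher and 0.0972% lower. The part of the shift of short and long genes in the CT1 calls was not tested.

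At the other times the calls were fewer. At CT5 no gene was higher and 1 was lower (Abca1), against 0.499% and 0.339% of all genes. At CT9 none was higher and 2 were lower (Dgat2 and Abca1), against 1.49% and 2.11%. At CT13 Abcg5 was higher and Fabp2, Acsl5 and Dgat2 were lower, against 2.04% and 1.35%. At CT17 none was higher and Fabp2, Acsl3 and Gpat3 were lower, against 0.684% and 1.41%. At CT21 none passed in either direction, against 0.677% and 0.754%. The median log2 difference of the 39 genes was 0.28 at CT1 and -0.14 at CT17, and between 0.028 and 0.039 at the 4 other times. At CT17, 26 of the 39 lay below 0. With those 5 libraries removed, the medians were 0.082 at CT1 and -0.14 at CT17, and 10 genes were called lower at CT17 and 7 at CT13 (2.87% and 2.99% of all genes).

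In control, 20 of 39 genes had a 24-h rhythm, against 20.5% of all genes tested. Of the 20, 16 peaked between CT12 and CT20, whereas 41.8% of the 3205 rhythmic genes did so over the whole table. Those 16 include carriers (Fabp1 CT16.2, Fabp2 CT16.6), both acyl-CoA synthetases, Dgat2 (CT13.5), Fitm2 (CT14.2), Plin2 (CT18.1) and the 3 apolipoproteins. The exceptions were Abcg8, Abcg5 and Abca1, which peaked between CT2.8 and CT8.5, and Lpin2 at CT23.4.

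In knockout, 15 of 39 genes had a rhythm, against 14.6% of all genes tested, and 12 genes had one in both genotypes. In all 12 the fitted peak was later in knockout, by 0.35 to 6.11 h with a median of 3.0 h. Among all genes tested, 72.5% of the 1110 with a rhythm in both genotypes were later, with a median shift of 0.949 h. In the other 42 libraries, all of 13 such genes were later, with a median of 1.49 h, against 68% of 1314 genes and 0.725 h. In knockout, 11 of the 15 peaks lay between CT20 and CT24, a window for which the share of all rhythmic genes was not computed. Without the 5 libraries none did, and 9 of 13 lay between CT12 and CT20, so the size of the delay rests in part on the 5 libraries.

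The test of a rhythm difference passed for 5 genes, Fabp1, Fabp2, Acsl5, Acsl3 and Dgat2, against 1.5% of all genes tested. With the libraries that stand apart left out, Fabp1 was lost and Abcg5 was gained, and the count stayed at 5.

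**Figure D5:**
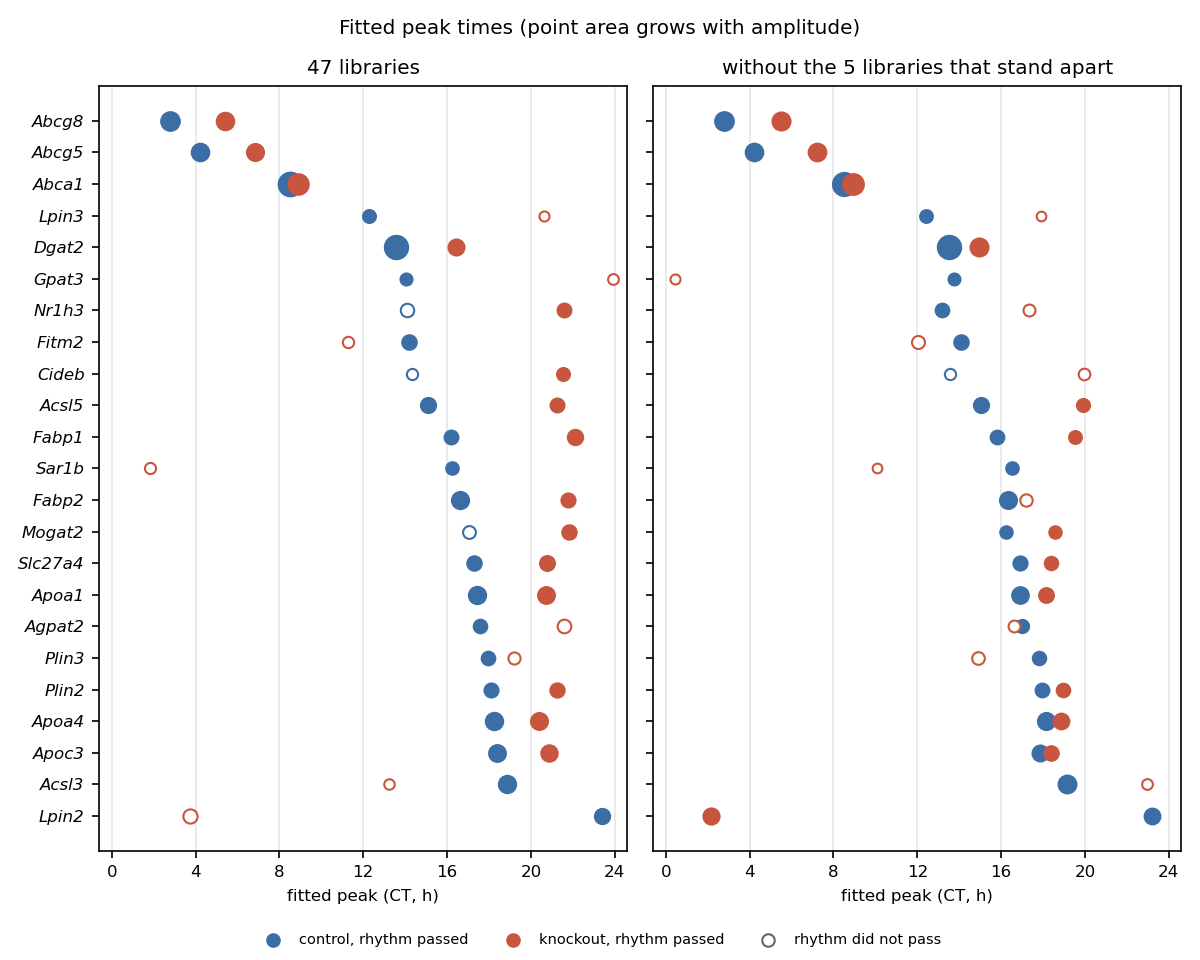
Fitted peak time (x axis, CT in hours) of the 23 genes with a rhythm in either genotype, control in blue and knockout in red, with all 47 libraries (left) and without the 5 that stand apart (right). Filled points passed the rhythm test and the area grows with amplitude. Most control peaks lie between CT12 and CT20, and the red points of Apoa1, Apoc3 and Apoa4 move from near CT21 on the left to between CT18 and CT19 on the right.

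Of 31 other genes of fat and sterol handling, 29 passed the filter, and 3 were higher and 6 lower in knockout over all times, against 12.2% and 11% of all genes. No rhythm difference passed in this list, against 1.5% of all genes. The chaperone P4hb, a subunit of the microsomal transfer protein complex, rose from 2477 to 2952 CPM (0.25, SE 0.048, adjusted p = 0.000102), and Ppard, a fatty acid receptor, rose from 119 to 145 CPM (0.29, adjusted p = 0.000688). The sterol exporter Abcg1 fell from 3.89 to 2.51 CPM (by 0.59, adjusted p = 0.00171). Srebf1, a factor of lipid synthesis, fell from 79.3 to 66.3 CPM (by 0.25, adjusted p = 0.00568). In the other 42 libraries, 2 of the list were higher and 6 lower, against 10.3% and 11.1% of all genes.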

How the data were processed

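The deposited table holds raw counts per gene, which the authors made from stranded mRNA libraries. Per the submitters' processing notes reads were handled with STAR 2.7.5c, Trimmomatic 0.39, FastQC 0.11.5 and SAMtools 1.3.1 on mm10, and featureCounts 1.4.6 is named too. Neither strand, annotation nor multi-mapping settings were given in the sources used here. Of 48 labelled samples, 1 knockout sample at CT9 was not analysed here.

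IDs were matched to GENCODE M21, 792 of them with the version ignored and 260 without a match. Genes were filtered with filterByExpr (minimum count 10, minimum total count 15), scaled by TMM and tested with edgeR 4.0.16 (robust quasi-likelihood test, R 4.3.3). The 12 group means left 35 residual degrees of freedom and the cosine fits 41. P-values were adjusted by Benjamini-Hochberg over all genes, with a threshold of 0.05. In simulated data, the test of the mean recovered 86.6% of 67 genes changed 1.5-fold among 15646, and 44.8% of 67 changed 1.25-fold. Where a rhythm was simulated in control only, the test of the rhythm difference recovered 46.3% at an amplitude of 0.5 and 4.48% at 0.25. Smaller differences can therefore be missed.

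All 40 genes are named, and some genes of the list of other pathway genes are not reported here. Values of libraries are given for the 8 with the smallest adjusted p of the mean and for further genes whose rhythm difference passed. Those of Apoa1 and Abcg5 were added after their values were seen. Members and lists were chosen with earlier results of these data known. Alternatives were upper quartile scaling, limma-voom (limma 3.58.1), DESeq2 1.42.0, no filter, a minimum count of 50, an enterocyte-marker covariate, group means in place of the cosine, leaving out the 5 libraries that stand apart (interquartile range over 0.5) and leaving out each library. Sequences are RefSeq (GRCm38.p6) windows. Apoa5 is limited by counting error, and an antisense gene covers 20.8% of its exon bases.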

Additional observations from a re-analysis of the deposited data

Results flagged for a closer look

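In 7 of 110 groups of 4 libraries 1 library lay far from the others, with a gap to the nearest that took most of the group's range (Dixon's test), and chance gives about 5% of groups. The low ones were Agpat2 in control CT17 replicate 1 (184 CPM), Tm6sf2 in control CT1 replicate 1 (249 CPM), Fabp2 in knockout CT5 replicate 4 (3319 CPM), Gpat3 in control CT9 replicate 3 (122 CPM) and Acsl5 in control CT21 replicate 3 (1748 CPM). The high ones were Tm6sf2 (545 CPM, next 310.4 CPM) and Fabp1 (4817 CPM, next 3067 CPM), both in knockout CT21 replicate 4, which is among the 5 libraries that stand apart.

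The rhythm differed between genotypes for Acsl5 (adjusted p = 9.43e-06, edgeR), Dgat2 (adjusted p = 0.000196), Fabp2 (adjusted p = 0.00436), Fabp1 (adjusted p = 0.0166) and Acsl3 (adjusted p = 0.0371). These 5 were picked out by the test of the difference itself.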

How the results depend on the processing

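Without the 5 libraries that stand apart, 14 genes were lower over all times (9 with all libraries). At CT1, 0 were higher and 0 lower (12 and 2). At CT5, 1 was higher and 2 lower (0 and 1), against 1.03% and 0.686% of all genes without the 5 libraries. At CT9, 2 were higher and 5 lower (0 and 2), against 2.68% and 3.57%. At CT13, 3 were higher and 7 lower (1 and 3), against 4.02% and 2.99%. At CT17, 1 was higher and 10 lower (0 and 3), against 2.2% and 2.87%. At CT21, 1 was lower (0), against 0.893%. With upper quartile scaling 6 genes were higher over all times (10) and 1 at CT9. With no filter on low counts 0 were lower at CT1, 0 at CT5 and 1 at CT9. With limma-voom 1 was higher at CT9 and 2 at CT13. With a minimum count of 50 these were 1 and 2, and with DESeq2 1 at CT5, 1 at CT9, 3 at CT13 and 1 at CT21. The counts of rhythmic genes moved by less than 1.5 times under these settings.

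Leaving out each of the 47 libraries in turn gave 6 to 11 higher and 8 to 11 lower genes over all times, with 6 without control CT5 replicate 2, control CT9 replicate 3 or control CT17 replicate 1. The ranges, higher then lower, were 9 to 15 and 0 to 2 at CT1, 0 to 1 and 0 to 1 at CT5, 0 to 2 and 1 to 3 at CT9, 1 to 2 and 1 to 4 at CT13 (1 lower without knockout CT13 replicate 3), 0 to 0 and 2 to 7 at CT17 (7 without knockout CT21 replicate 4), and 0 to 2 and 0 to 1 at CT21. Rhythms ranged from 14 to 23 in control, 12 to 18 in knockout and 3 to 8 for the difference (3 without knockout CT1 replicate 1, 8 without knockout CT21 replicate 1). No called value changed sign under any of these settings. The cause was not tested. No paired analysis was possible because the labels carry no replicate numbers, and the ones used here were assigned in sample order.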
